A study of Rattus norvegicus with 18 samples.

Results

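Major histocompatibility complex (MHC) class II genes and Ciita, the gene of their transactivator, were followed in cultured rat aortic rings given vascular endothelial growth factor (VEGF) or angiopoietin-1 (Ang1). The group held 8 genes: RT1-Ba, RT1-Bb, RT1-Da, RT1-Db1, RT1-DMa, RT1-DMb, Cd74 and Ciita. Every probe set annotated to 1 of these genes alone was taken, which gave 14 of the 31256 probe sets on both array types, 11 on the Affymetrix array RAE230A (array A) and 3 on RAE230B (array B). Of these 14 probe sets, 9 passed the filter on dim signals and 5 did not. RT1-Db1 had no probe set above the filter.

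All rings came from the thoracic aorta of male Fisher 344 rats aged 5 weeks and were kept 14 days in a culture medium without serum. From day 13 the VEGF group had 10 ng/ml of the recombinant human factor, the Ang1 group had 100 ng/ml of the recombinant human factor together with 5 µg/ml of a poly-His antibody, and the untreated group had medium alone. The antibody was given with Ang1 only, so Ang1 and antibody cannot be told apart. Treatment lasted 20 h by the sample labels and 18 h by the design text. Each RNA came from 4 to 6 pooled rings, each group had 3 RNAs, and each of the 9 RNAs was put on both array types. The design text says that each of 3 animals gave 1 RNA to each group, although the labels do not say which animal a replicate number stands for.

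MHC class II molecules are pairs of an alpha and a beta chain that present peptides from the endosomal pathway to CD4+ T cells. The chains assemble with the invariant chain, the product of Cd74, and a peptide is loaded with the help of the DM molecule. Their genes share a promoter module, the X and Y boxes, on which RFX, CREB and NF-Y factors assemble. Ciita acts as a coactivator that docks on these factors without binding DNA itself, and interferon-gamma induces it in many cell types that otherwise lack class II molecules, including vascular cells.

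RefSeq promoter windows (build GRCr8, 250 bases before to 50 after each gene's start) were found for 6 of the 8 genes, all but RT1-DMb and Ciita. The stretch from 200 to 11 bases before the start is shown for RT1-Ba, whose levels differed most below, for its partner RT1-Bb, for RT1-Da, which like RT1-Db1 holds all motifs searched, and for Cd74, which lacks the longer Y box motif. Each reads 5′ to 3′ on the gene's strand, and capitals mark the motif matches.

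RT1-Ba (chr20:4576857-4577046, plus strand): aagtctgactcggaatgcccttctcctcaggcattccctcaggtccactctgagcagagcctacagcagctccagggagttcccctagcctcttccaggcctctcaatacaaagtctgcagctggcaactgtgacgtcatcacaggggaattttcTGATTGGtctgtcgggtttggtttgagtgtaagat

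RT1-Bb (chr20:4604129-4604318, minus strand): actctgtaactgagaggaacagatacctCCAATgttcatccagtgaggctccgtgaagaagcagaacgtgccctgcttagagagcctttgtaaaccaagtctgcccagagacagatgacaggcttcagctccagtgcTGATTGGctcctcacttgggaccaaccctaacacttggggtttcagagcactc

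RT1-Da (chr20:4515215-4515404, plus strand): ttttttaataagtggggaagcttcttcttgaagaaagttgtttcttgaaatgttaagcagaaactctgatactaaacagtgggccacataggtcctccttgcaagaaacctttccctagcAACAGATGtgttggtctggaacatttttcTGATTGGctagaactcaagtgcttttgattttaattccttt

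Cd74 (chr18:56527006-56527195, plus strand): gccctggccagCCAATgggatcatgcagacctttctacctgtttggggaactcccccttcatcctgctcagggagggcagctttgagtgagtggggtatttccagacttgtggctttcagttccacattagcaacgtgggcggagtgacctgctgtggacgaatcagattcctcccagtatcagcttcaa

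The motifs were searched on both strands of the whole window. ATTGG, the core of the Y box (CCAAT on the other strand), was in 6 of the 6 windows and in 37.5% of all 33469 RefSeq promoter windows of the same length. TGATTGG, which contains ATTGG and was chosen after the sequences had been seen, was in 5 of 6, all but Cd74, and in 7.06% of all windows. Its first base lay 45 bases before the start in RT1-Ba, 63 in RT1-Bb, 51 in RT1-Da, 82 in RT1-Db1 and 66 in RT1-DMa. AACNGATG, a core of the X box, was in 2 of 6 windows, RT1-Da at 80 bases and RT1-Db1 at 110 bases before the start, and in 2.58% of all windows. A match is a description of these letters and not a measured binding site.

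Levels below are log2 of the normalised signal, and differences between groups are given on the same scale, each with its standard error (SE) from a limma model fitted over all probe sets of an array type. VEGF and Ang1 are each set against the same 3 untreated arrays, so these comparisons are not independent. Arrays of 2 RNAs, untreated replicate 2 and Ang1 replicate 2, stood apart. Their median correlation with the other arrays was 0.80 to 0.90 on array A against 0.93 to 0.97 for the other 7, and 0.65 to 0.85 on array B against 0.88 to 0.91. Ang1 replicate 3 on array B had been scaled to a trimmed mean signal of 94.8, against 250 on the other 17 arrays. The labels describe a 2-cycle labelling for untreated replicate 1 and the standard one for the other RNAs. The ratio of 3′ to 5′ actin signal on array A, a sign of RNA length, was 8.79 to 12.4 in the VEGF RNAs, 6.18 to 8.29 in the Ang1 RNAs and 1.86 to 7.70 in the untreated RNAs. On array A it was thus higher in all VEGF RNAs than in the others, while Ang1 and untreated overlapped. On array B it was 5.24 to 11.9 in the VEGF RNAs, 1.25 to 7.38 in the Ang1 RNAs and 3.02 to 5.08 in the untreated RNAs. There Ang1 overlapped with both other groups, and Ang1 replicate 2 was the lowest. The same ratio for Gapdh on array A was 9.26 to 15.1, 2.27 to 11.3 and 1.70 to 11.9 in the VEGF, Ang1 and untreated RNAs, lowest in the 2 RNAs that stood apart. The part of these ratios in the differences below was not tested.

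The clearest difference in the family was in RT1-Ba, the RT1-B alpha chain gene, whose array B signal averaged 3.87-fold and 3.57-fold higher by its 2 probe sets after Ang1. On array B, 3 of 3 kept probe sets averaged higher in each treated group, against 49.0% of all kept probe sets there for VEGF and 49.2% for Ang1, and 0 of 3 higher in VEGF than in Ang1 rings, against 52.5%. The other kept probe sets of the family averaged 0.06 to 0.77 log2 units higher after Ang1 than in untreated rings, and all kept probe sets averaged 0.09 to 0.73 units higher after VEGF. No probe set of the family passed the adjusted threshold of 0.05 in limma in any comparison, on array types where 0.0% of all kept probe sets passed it. In these bulk RNAs, fewer cells of a type and less RNA per cell cannot be told apart.

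On array A, 6 of the 6 kept probe sets of the family averaged higher after VEGF, with a median difference of 0.45 against -0.01 over all 9520 kept probe sets, of which 49.1% were higher. Against untreated rings, 6 of 6 also averaged higher after Ang1, with a median of 0.47 against -0.03 over all kept probe sets, of which 46.7% were higher. Untreated replicate 3 was the lowest RNA for this family: the mean over the 6 genes, each centred on its own mean, was 0.37, -0.03 and 0.10 in VEGF replicates 1 to 3, 0.16, 0.52 and -0.21 in the Ang1 replicates, and 0.02, -0.21 and -0.71 in the untreated ones. Leaving that RNA out lowered the medians to 0.32 for VEGF and 0.29 for Ang1, with 5 genes higher in each. Between VEGF and Ang1, 4 of 6 were higher after VEGF, with a median of 0.18 against 0.02 over all kept probe sets, of which 52.5% were higher. That median was -0.16, with 2 genes higher, without VEGF replicate 1.

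**Figure D1:**
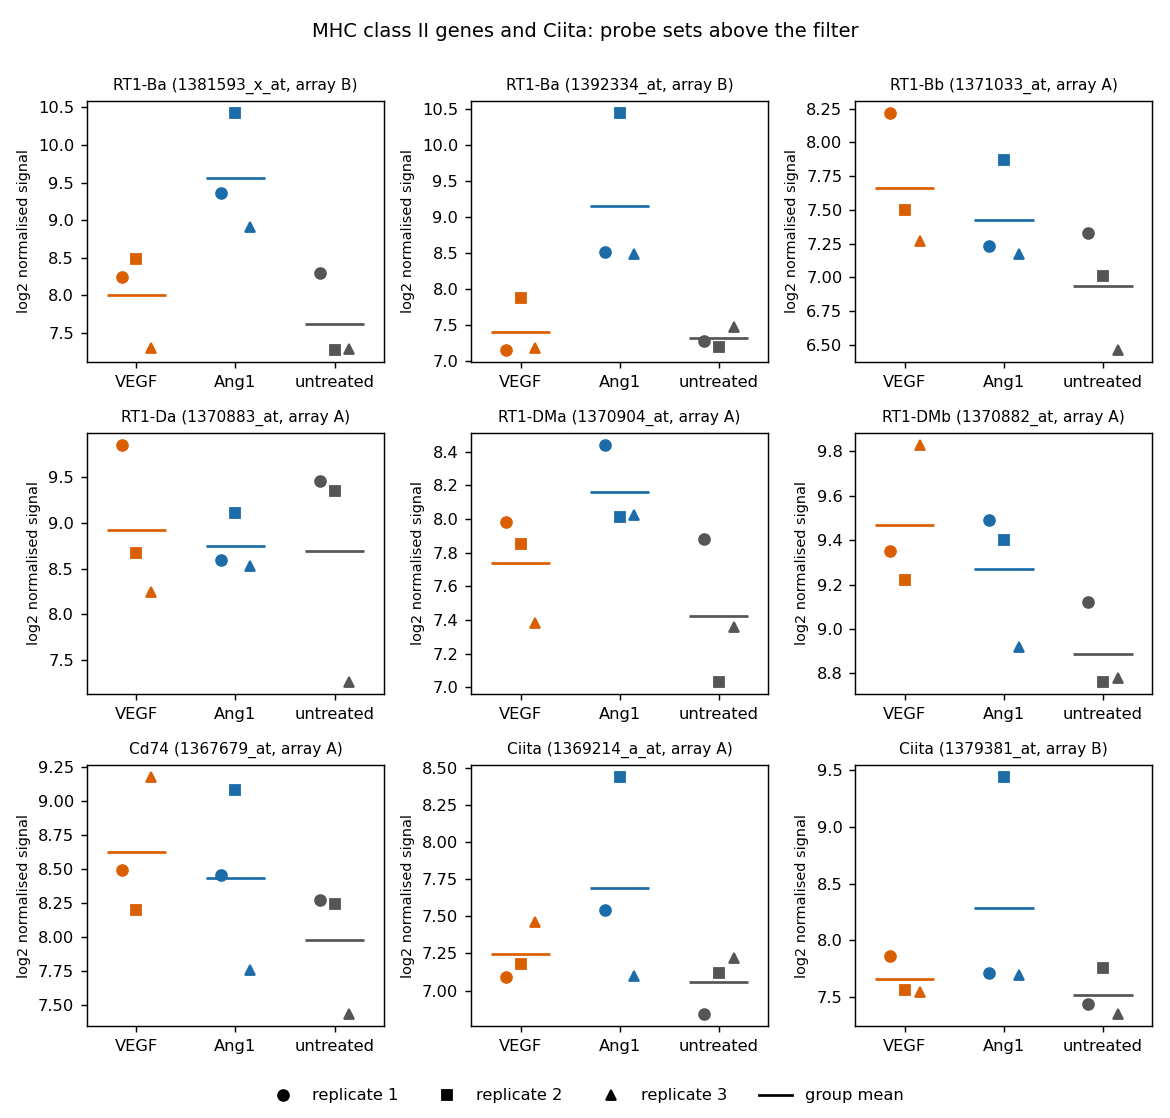
Log2 normalised signal (vertical axis) of the 9 probe sets above the filter in VEGF, Ang1 and untreated rings (horizontal axis), with 1 symbol per replicate and a line at each group mean. The Ang1 points of both RT1-Ba probe sets, at 8.48 to 10.45, lie above all VEGF and untreated points of the same probe set, while most other panels overlap; each panel has its own scale.

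RT1-Ba had 2 kept probe sets, both on array B and both built from the same expressed sequence tag, so they are not separate evidence. By 1392334_at its level was 7.15, 7.87 and 7.18 in VEGF rings, 8.51, 10.45 and 8.48 in Ang1 rings, and 7.28, 7.19 and 7.47 in untreated rings. All 3 Ang1 values were above all VEGF and untreated values, and the highest by far was replicate 2, one of the RNAs that stood apart. By 1381593_x_at the level was 8.24, 8.48 and 7.30 in VEGF rings, 9.36, 10.43 and 8.91 in Ang1 rings, and 8.30, 7.27 and 7.28 in untreated rings, with the same separation of the Ang1 group.

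Ang1 exceeded untreated by 1.83 ± 0.50 (SE) in 1392334_at, with an unadjusted limma p of 0.0038 and an adjusted p of 0.467. In 1381593_x_at the difference was 1.95 ± 0.49, with an unadjusted limma p of 0.00218 and the same adjusted p of 0.467. On array B an unadjusted p under 0.05 was met by 10.5% of all kept probe sets in this comparison, and 8.71% had all 3 Ang1 values above all untreated values, while 2 of the 3 kept probe sets of the family met each of these. VEGF set against Ang1 gave -1.74 ± 0.50 in 1392334_at and -1.56 ± 0.49 in 1381593_x_at, with a limma adjusted p of 0.56 in both. All 3 VEGF values lay below all Ang1 values in both, as in 9.57% of kept probe sets on array B, and 8.48% had an unadjusted p under 0.05. VEGF differed from untreated by 0.09 ± 0.50 and 0.39 ± 0.49, and these groups overlapped.

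The Ang1 difference was smaller without the 2 RNAs that stood apart. It was then 1.14 ± 0.33 in 1392334_at and 1.39 ± 0.48 in 1381593_x_at, with adjusted limma p of 0.801 and 0.831. Ang1 still lay above untreated in both probe sets, a separation that 21.0% of all kept probe sets on array B showed between these 2 Ang1 and 2 untreated arrays. Over the 19 settings tried the difference was 1.14 to 2.19 in 1392334_at and 1.39 to 2.30 in 1381593_x_at.

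The separation also rests on how Ang1 replicate 3 was brought to the scale of the other arrays. The deposited signal of 1392334_at was 397, 915 and 145 in Ang1 rings against 148, 127 and 164 in untreated rings, and that of 1381593_x_at was 685, 903 and 197 in Ang1 rings against 323, 136 and 140 in untreated rings. Before normalisation, then, Ang1 replicate 3 lay within the untreated range in both. With deposited values centred on each array's median in place of quantile normalisation, the Ang1 differences were 1.39 and 1.46. Without Ang1 replicate 3 they were 2.19 and 2.30.

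RT1-Ba had 2 further probe sets on array A, both under the filter, at a mean level of 5.94 and 6.19 against a limit of 6.52. By 1377334_at its level was 6.49, 5.42 and 4.93 in VEGF rings, 7.10, 6.81 and 6.38 in Ang1 rings, and 6.33, 5.81 and 6.43 in untreated rings. By 1370822_at it was 6.80, 5.89 and 5.14 in VEGF rings, 5.03, 7.68 and 6.39 in Ang1 rings, and 4.76, 6.87 and 4.94 in untreated rings. In both, the Ang1 and untreated values overlapped, and in a limma fit without the filter the differences were 0.57 ± 0.42 and 0.84 ± 0.74. Across the 9 RNAs the pair on array B correlated at r = 0.90 and the pair on array A at r = 0.15, a description over RNAs that share 3 groups and the array scaling.

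**Figure D2:**
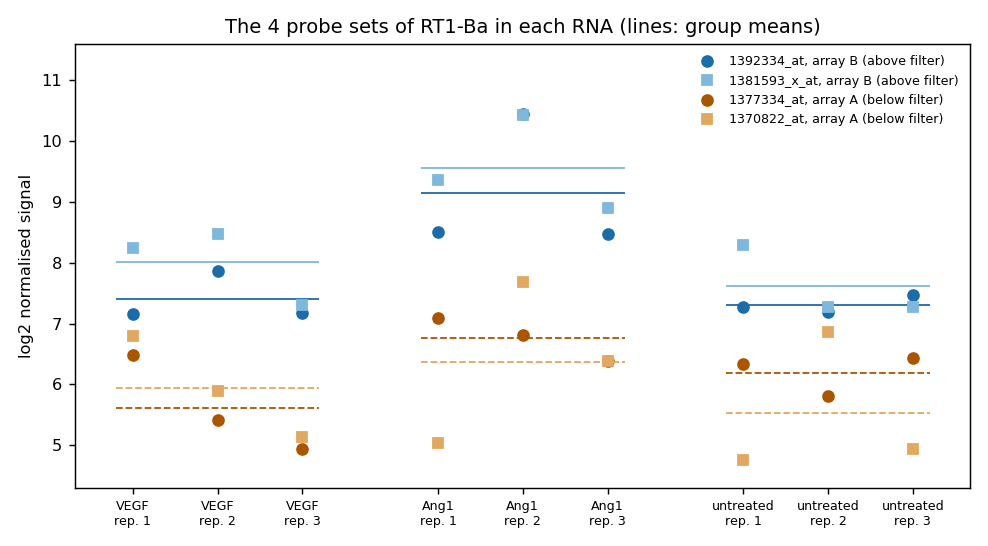
Log2 normalised signal (vertical axis) of the 4 RT1-Ba probe sets in each of the 9 RNAs (horizontal axis), with lines at the group means, solid for array B and dashed for array A. Both array B probe sets reach their highest value, 10.45 and 10.43, in Ang1 replicate 2, and the array A probe sets overlap between the groups.

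RT1-Bb codes for the beta chain that pairs with the product of RT1-Ba. Its kept probe set, 1371033_at on array A, stood at 8.22, 7.50 and 7.27 in VEGF rings, 7.23, 7.87 and 7.17 in Ang1 rings, and 7.33, 7.01 and 6.46 in untreated rings. The group means ran from VEGF over Ang1 to untreated, but VEGF replicate 3 lay below untreated replicate 1. VEGF exceeded untreated by 0.73 ± 0.36, with an unadjusted limma p of 0.0691 and an adjusted p of 1.00. VEGF was the higher in 3 of 3 same-numbered pairs, and with the replicate number as a block the SE was 0.32 and the unadjusted limma p 0.0471, with an adjusted p still at 1.0. Ang1 exceeded untreated by 0.49 ± 0.36 with an adjusted limma p of 0.951. The second RT1-Bb probe set, 1371065_at, was under the filter at 5.25 to 6.99 and differed by -0.09 ± 0.46 after VEGF and -0.15 ± 0.46 after Ang1 in the fit without the filter. The 2 probe sets of RT1-Bb correlated at r = 0.09 over the 9 RNAs.

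RT1-Da codes for the alpha chain of the RT1-D molecule. Its level on array A was 9.85, 8.67 and 8.24 in VEGF rings, 8.59, 9.11 and 8.53 in Ang1 rings, and 9.46, 9.35 and 7.26 in untreated rings. The untreated group held both high values and the lowest, and all groups overlapped. VEGF differed from untreated by 0.23 ± 0.59 and Ang1 by 0.06 ± 0.59, with adjusted limma p of 1.00 and 0.993. Without untreated replicate 3 these differences were -0.48 and -0.65, so their direction rests on that RNA. The Ang1 difference was also negative, -0.29, with deposited values centred on the array median.

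RT1-Db1, the beta chain gene of the same molecule, was dim. Its probe set 1370383_s_at averaged 6.50, just under the limit of 6.52, with 7.19, 6.84 and 6.14 in VEGF rings, 6.58, 6.36 and 6.74 in Ang1 rings, and 7.19, 5.01 and 6.47 in untreated rings. The untreated group held both the joint highest value, in replicate 1, and the lowest, in replicate 2. Its other probe set, 1370382_at, was at 6.14, 4.99 and 4.82 in VEGF rings, 4.47, 4.07 and 4.36 in Ang1 rings, and 5.49, 5.13 and 4.38 in untreated rings. The 3 VEGF values of that probe set were above the 3 Ang1 values, by 1.02 ± 0.37 in the fit without the filter, with an unadjusted limma p of 0.0208 and an adjusted p of 0.946. In that fit 1370382_at differed from untreated by 0.32 ± 0.37 after VEGF and -0.70 ± 0.37 after Ang1, and 1370383_s_at by 0.50 ± 0.52 and 0.34 ± 0.52, with overlapping groups. Deposited signals of 1370382_at were between 2.4 and 48.8, so these are differences near the lower end of the scale.

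RT1-DMa and RT1-DMb code for the chains of DM, which exchanges the invariant chain fragment for a peptide. RT1-DMa was at 7.98, 7.85 and 7.38 in VEGF rings, 8.44, 8.01 and 8.02 in Ang1 rings, and 7.88, 7.03 and 7.36 in untreated rings. All 3 Ang1 values were above all untreated values and above all VEGF values. Ang1 exceeded untreated by 0.73 ± 0.31, or 1.66-fold, with an unadjusted limma p of 0.041 and an adjusted p of 0.951, and without the RNAs that stood apart by 0.63 ± 0.33. On array A, 3.52% of kept probe sets had all Ang1 values above all untreated values, and 3.18% had an unadjusted p under 0.05. Of the 6 kept probe sets of the family on this array, RT1-DMa alone met each of them. VEGF against Ang1 gave -0.42 ± 0.31 with an adjusted limma p of 0.973, and 4.23% of kept probe sets had all VEGF values below all Ang1 values. In that comparison 0 of the 6 had an unadjusted limma p under 0.05, against 1.99% of all.

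RT1-DMb was at 9.35, 9.22 and 9.83 in VEGF rings, 9.49, 9.40 and 8.92 in Ang1 rings, and 9.12, 8.76 and 8.78 in untreated rings. All 3 VEGF values were above all untreated values, whereas Ang1 replicate 3 lay within the untreated range. VEGF exceeded untreated by 0.58 ± 0.29, with an unadjusted limma p of 0.0713 and an adjusted p of 1.00. RT1-DMb was the 1 probe set of 6 with all VEGF values above all untreated values on array A, where 3.59% of kept probe sets had this, and 0 of 6 had an unadjusted p under 0.05 by limma, against 1.66% of all (with the replicate block RT1-Bb alone had one). On array B, 0 of 3 had all VEGF values above all untreated values, against 2.55% of all, and 0 of 3 had an unadjusted p under 0.05, against 0.72% of all. Ang1 exceeded untreated by 0.38 ± 0.29. The 2 DM genes thus differed in which group averaged highest, Ang1 for RT1-DMa and VEGF for RT1-DMb. In RT1-DMb, however, VEGF exceeded Ang1 by only 0.20 ± 0.29, less than its SE, and these groups overlapped.

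Cd74, the invariant chain gene, was at 8.49, 8.20 and 9.18 in VEGF rings, 8.46, 9.08 and 7.76 in Ang1 rings, and 8.27, 8.24 and 7.43 in untreated rings. VEGF replicate 2 lay below 2 of the untreated values, and Ang1 replicate 3 did too, so the groups overlapped. VEGF exceeded untreated by 0.64 ± 0.41 and Ang1 by 0.46 ± 0.41, with adjusted limma p of 1.00 and 0.951.

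Ciita had 1 probe set on each array type. On array A its level was 7.09, 7.18 and 7.46 in VEGF rings, 7.54, 8.44 and 7.10 in Ang1 rings, and 6.84, 7.12 and 7.22 in untreated rings. On array B it was 7.86, 7.56 and 7.55 in VEGF rings, 7.71, 9.44 and 7.70 in Ang1 rings, and 7.44, 7.76 and 7.35 in untreated rings. On both array types Ang1 replicate 2 was the highest of the 9 RNAs, at 8.44 and 9.44 against at most 7.54 and 7.86 in the others. Ang1 replicate 3 on array A and both other Ang1 values on array B lay within the untreated range. Ang1 exceeded untreated by 0.64 ± 0.35 on array A and 0.77 ± 0.45 on array B, with adjusted limma p of 0.951 and 0.491. Without the 2 RNAs that stood apart both differences were 0.31, with SE of 0.29 and 0.28. VEGF exceeded untreated by 0.18 ± 0.35 and 0.14 ± 0.45. The 2 probe sets of Ciita correlated at r = 0.88 over the 9 RNAs and at r = 0.17 over 7 without those that stood apart.

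**Figure D3:**
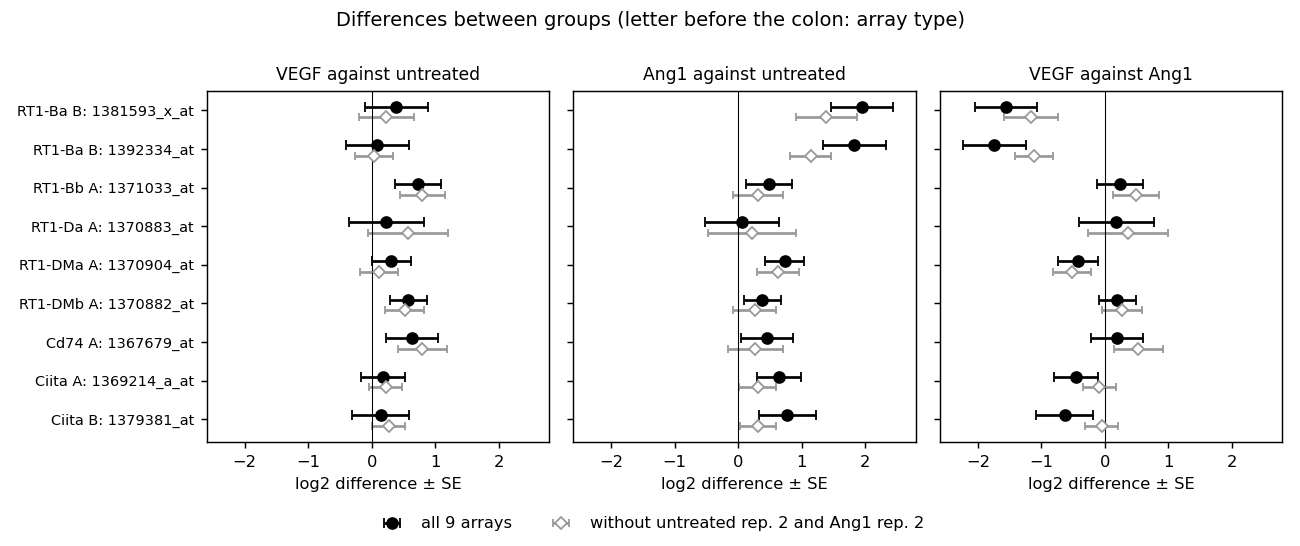
Log2 differences with SE (horizontal axis) for the 9 kept probe sets (rows) in 3 panels (VEGF and Ang1, each against untreated, and VEGF against Ang1), from all 9 arrays (filled circles) and without untreated replicate 2 and Ang1 replicate 2 (open diamonds). The RT1-Ba probe sets stand at 1.83 and 1.95 in the Ang1 panel and at 1.14 and 1.39 without those RNAs, and Ciita at 0.64 and 0.77, or 0.31 without those RNAs.

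The genes whose pattern over the 9 RNAs on array A was most like the mean of the family were Rtn4rl1 (r = 0.93), Chd1l (0.91), Trappc12 (0.90), Cpn1 (0.89), Capza1 (0.88), Slc29a2 (0.88), Mcm3 (0.87) and Tmem106a (0.87). Over the 7 RNAs left without those that stood apart, r was 0.81 to 0.95 for these 8 genes. They were picked as the highest of all named genes on the array, so the values describe the choice.

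Genes around the class II pathway were counted from lists. Of 13 factors at the class II promoter, 9 were kept on array A, and 3 averaged higher and 6 lower after VEGF (median -0.08), against 5 higher and 4 lower after Ang1 (median 0.12). Rfx5, which codes for the DNA-binding subunit of RFX, differed by -0.13 ± 0.37 after VEGF and 0.12 ± 0.37 after Ang1. Kat2b, a histone acetyltransferase gene, differed by -0.41 ± 0.36 after VEGF, and Ep300, another, by -0.24 ± 0.34 after VEGF and -0.79 ± 0.34 after Ang1. On array B, 3 of these factors were kept, with 1 higher and 2 lower in each comparison with untreated rings. Rfxap, a further RFX subunit gene kept there, differed by 0.53 ± 0.70 after VEGF and -0.21 ± 0.70 after Ang1.

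Of 14 genes of the interferon-gamma pathway that leads to Ciita, 7 were kept on array A, and 6 averaged higher and 1 lower after VEGF (median 0.42), against 5 higher and 2 lower after Ang1 (median 0.24). Ifng itself was under the filter at 4.38 to 6.72. Irf1, a transcription factor gene induced by interferon-gamma, was at 8.16, 8.63 and 8.36 in VEGF rings, 8.57, 8.86 and 8.75 in Ang1 rings, and 7.68, 8.0 and 7.86 in untreated rings. All VEGF and all Ang1 values were above all untreated values, as in 3.59% of kept probe sets on array A for VEGF and 3.52% for Ang1. The differences were 0.54 ± 0.26 for VEGF and 0.88 ± 0.26 for Ang1, with unadjusted limma p of 0.0673 and 0.00696. Ifngr1 and Ifngr2, the receptor genes, averaged 0.99 ± 0.41 and 0.82 ± 0.29 higher after VEGF, and 0.64 ± 0.41 and 0.24 ± 0.29 higher after Ang1. In untreated replicates 1 to 3 Ifngr1 was at 9.36, 8.0 and 9.5 and Ifngr2 at 8.48, 7.8 and 8.05. Replicate 2, the lowest in both, was one of the RNAs that stood apart, so part of these differences rests on it. Irf8 averaged 0.42 ± 0.33 and 0.45 ± 0.33 higher. On array B, 4 genes of this list were kept, with 2 higher and 2 lower in each comparison with untreated rings.

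Genes of lysosomal antigen processing divided nearly evenly. Of 19, 17 were kept on array A, and 8 averaged higher and 9 lower both after VEGF (median -0.01) and after Ang1 (median -0.03). Ctss, the gene of cathepsin S, which trims the invariant chain, differed by -0.52 ± 0.39 after VEGF and -0.20 ± 0.39 after Ang1. Ifi30, the gene of a lysosomal thiol reductase, differed by 0.42 ± 0.44 and 0.50 ± 0.44. Among the largest differences of the list after VEGF were Ctsd, an aspartic protease gene, at 1.63 ± 1.07, and Cst3, a cathepsin inhibitor gene, at 0.90 ± 0.63.

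Of 17 genes of MHC class I presentation, 13 were kept on array A, with 12 higher and 1 lower in both comparisons with untreated rings, at a median of 0.53 after VEGF and 0.22 after Ang1. On array B 2 were kept, with 0 higher and 2 lower after VEGF (median -0.25) and 1 higher and 1 lower after Ang1 (median -0.14). Tap1, a peptide transporter gene, differed by 1.35 ± 0.76 after VEGF and 0.16 ± 0.76 after Ang1, and Psmb10, a gene of an immunoproteasome subunit, by 1.12 ± 0.56 and 0.41 ± 0.56. Tapbp, the gene of tapasin, differed by 0.56 ± 0.28 and 0.64 ± 0.28, with all treated values above all untreated ones. Of all kept probe sets on array A, 3.59% had this for VEGF and 3.52% for Ang1. Of 9 costimulation genes only Icam1, an adhesion molecule gene, was kept on array A, at 0.87 ± 0.65 after VEGF and 0.30 ± 0.65 after Ang1. In none of these lists did a gene pass the adjusted limma threshold on either array type. On array A an unadjusted limma p under 0.05 was met after VEGF by Ifngr1 and Ifngr2, 2 of the 7 kept genes of their list. Of all kept probe sets there 1.66% met it. After Ang1 it was met by Irf1 (1 of 7 kept genes of its list), Ep300 (1 of 9) and Tapbp (1 of 13), against 3.18% of all. On array B no gene of these lists met it. None of the other class II genes looked for, such as RT1-DOa and RT1-DOb, had a probe set annotated to it alone.

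**Figure D4:**
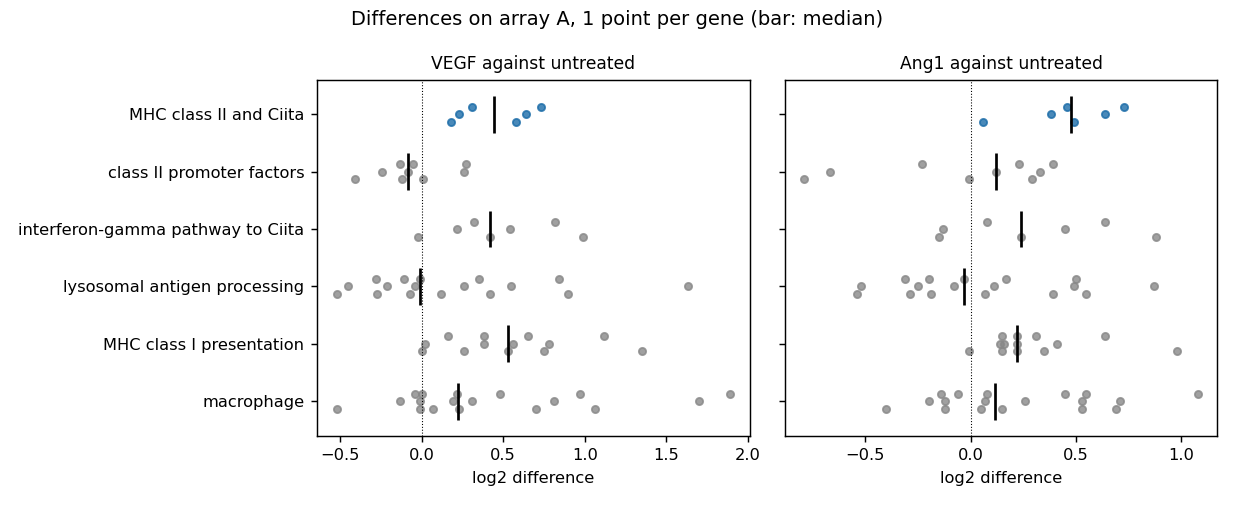
Log2 difference on array A (horizontal axis) of each kept gene (1 point) in the MHC class II family and 5 related or marker lists (rows), for VEGF against untreated and Ang1 against untreated, with a bar at the list's median. The 6 class II points lie between 0.18 and 0.73 after VEGF and between 0.06 and 0.73 after Ang1, and single genes of the other lists spread more widely.

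Class II molecules are made mainly by macrophages, dendritic cells and B cells, so markers of these cells were read beside the family. Of 25 macrophage markers 18 were kept on array A, with 12 higher and 6 lower in each comparison with untreated rings (median 0.22 after VEGF and 0.12 after Ang1). The summed normalised signal of all 19 annotated there, kept or not, was 27690 to 32231 in VEGF rings, 23829 to 28973 in Ang1 rings and 19552 to 29355 in untreated rings. The lowest sum was in untreated replicate 3, which was also the lowest RNA for the class II family. The next lowest, 23829, was in Ang1 replicate 2, the highest RNA for the family on that array at 0.52. On array B, 6 markers were kept, and the sums were 13067 to 15300, 5343 to 14926 and 7580 to 12449 in VEGF, Ang1 and untreated rings, with the lowest in Ang1 replicate 2, where RT1-Ba was highest. Of these 6, 5 averaged higher and 1 lower after VEGF (median 0.37), and 3 higher and 3 lower after Ang1 (median 0.04). Cd68, a defining macrophage gene, had deposited signals of 1262 to 2418 in VEGF rings, 1400 to 1900 in Ang1 rings and 1061 to 2435 in untreated rings, which overlap throughout. Cd163, a macrophage scavenger receptor gene, was at 7.38, 7.20 and 7.40 in VEGF rings, 8.32, 8.84 and 7.54 in Ang1 rings, and 7.38, 7.17 and 6.69 in untreated rings on array B, and averaged 1.15 ± 0.37 higher after Ang1 than in untreated rings, with an unadjusted limma p of 0.00996. Laptm5 and Trem2 on the same array differed by -0.82 ± 1.12 and -0.44 ± 0.42 after Ang1. Laptm5 by its array A probe set differed by 0.69 ± 0.38. After VEGF, Cybb, a gene of the phagocyte oxidase, differed on array B by 1.05 ± 0.36, with an unadjusted limma p of 0.0158, and Adgre1 by 1.04 ± 0.64. Both had all VEGF values above all untreated values, as in 2.55% of kept probe sets on array B. Cybb by its array A probe set differed by 0.48 ± 0.35, with overlapping groups.

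Of 10 B cell markers 5 were annotated on array B and 3 were kept. The summed normalised signal of the 5, kept or not, was 1788 to 2902 in VEGF rings, 2289 to 2855 in Ang1 rings and 1431 to 2334 in untreated rings. Ms4a1, which codes for CD20, was at 8.04, 7.63 and 8.20 in VEGF rings, 8.13, 9.34 and 8.07 in Ang1 rings, and 7.34, 6.73 and 7.72 in untreated rings, so that all Ang1 values were above all untreated values, as in 8.71% of kept probe sets on array B. Its deposited signals were 109 to 603 in Ang1 rings and 85.4 to 200 in untreated rings, which overlap. These are not on 1 scale, since Ang1 replicate 3 on array B had a trimmed mean signal of 94.8 against 250 on the other arrays. Ang1 exceeded untreated by 1.25 ± 0.41 in Ms4a1 and by 1.21 ± 0.44 in Cd22, whereas Blnk, also kept, differed by -1.15 ± 0.64. On array A the 1 annotated B cell marker, Cd79b, had deposited signals of 4.8 to 6.8 in VEGF rings, 5.9 to 20.3 in Ang1 rings and 4.9 to 8.5 in untreated rings, near the bottom of the scale. Of 14 dendritic cell markers 5 were annotated on array A and 2 were kept. The 5, kept or not, summed to 643 to 844 in VEGF rings, 689 to 1007 in Ang1 rings and 536 to 775 in untreated rings. The part of macrophage, B cell and dendritic cell markers in the class II differences was not tested. Markers of the wall cells of the labelled tissue were read too: Myh11, a defining smooth muscle gene, had deposited signals of 856 to 1612, 739 to 1513 and 1681 to 3791 in VEGF, Ang1 and untreated rings, and Pecam1, an endothelial gene, had 134 to 278, 108 to 295 and 38.5 to 226. The lowest Pecam1 signal, 38.5, was dim, so Pecam1 does not show endothelial cells in every RNA. Of 14 smooth muscle markers 12 were kept on array A, with 3 higher and 9 lower after VEGF (median -0.38) and 2 higher and 10 lower after Ang1 (median -0.10). The summed normalised signal of all 13 annotated there, kept or not, was 9291 to 10729 in VEGF rings, 10986 to 11389 in Ang1 rings and 11751 to 16545 in untreated rings. In this sum, which bright genes dominate, neither treated group overlapped with untreated. The mean log2 level of the same 13 did overlap, at 8.54 to 8.82, 8.38 to 8.93 and 8.36 to 9.27 in VEGF, Ang1 and untreated rings. On array B 3 were kept of 8 annotated. The sums of these 8 were 953 to 1175, 736 to 1246 and 992 to 1346 in VEGF, Ang1 and untreated rings, which overlapped. Of 18 endothelial markers 11 were kept on array A, with 7 higher and 4 lower after VEGF (median 0.16) and 3 higher and 8 lower after Ang1 (median -0.17). The sums of all 13 annotated there, kept or not, were 2411 to 3644, 1806 to 3739 and 1789 to 3552 in VEGF, Ang1 and untreated rings, which overlapped. On array B 4 endothelial markers were kept, with 1 higher and 3 lower after VEGF (median -0.34) and 0 higher and 4 lower after Ang1 (median -0.79). The sums of the 5 annotated there, kept or not, overlapped, at 4343 to 5741, 1475 to 6041 and 5146 to 6916 in VEGF, Ang1 and untreated rings. The lowest, 1475, was in Ang1 replicate 2, one of the RNAs that stood apart, and the other Ang1 sums were 5029 and 6041. The part of smooth muscle and endothelial markers in the class II differences was not tested either.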

How the data were processed

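RNA of cultured rat aortic rings was measured on 18 arrays, 9 RNAs on each of 2 Affymetrix array types. The authors deposited 1 intensity per probe set and array, on a linear scale. MAS5 is the tool that the submitters' processing notes name. Its version was not given in the sources used here. Detection calls were not used. Depth has no counterpart here: the number of arrays limits the precision.

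From these values log2(signal + 16) was taken and arrays of 1 type were quantile normalised. Control probe sets (57 per type) were left out, and the dimmer probe sets were dropped at the 40th percentile of the mean, which left 9520 of 15923 (array A, limit log2 6.52) and 9166 of 15333 (array B, limit log2 6.71). Fold changes are on the log2(signal + 16) scale and understate those of dim probe sets. The 3 groups were compared with limma 3.58.1 in R 4.3.3 (linear model over 9 arrays, eBayes with intensity trend, Benjamini-Hochberg within the array type, threshold 0.05), tested on simulated data. An exact test of 3 against 3 arrays cannot go below p = 0.1. Levels of different probe sets are not comparable.

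Symbols came from the platform annotation, updated by gene ID: 12789 probe sets of array A had 1 symbol, 312 several and 2822 none, and 7570, 100 and 7663 on array B. The genes, the related and marker lists and the comparisons were chosen with earlier results of these data known, so lists are described by counts and medians and have no test. Every probe set of the family is given; the 8 genes most like it were taken by correlation, and of each related list the 4 with the largest VEGF difference could be named beside pathway genes. Cd163, Laptm5, Trem2, Cybb, Adgre1, Ms4a1, Cd22, Blnk, Tapbp and Ep300 were named after their values were seen.

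Same-numbered RNAs deviated together from their group means, with correlations of 0.14 to 0.41 between VEGF and untreated and 0.14 to 0.49 between Ang1 and untreated over both array types, but -0.21 to 0.23 between Ang1 and VEGF. The 0.49 was between the 2 RNAs that stood apart. RNAs of different numbers correlated at -0.34 to 0.10 between VEGF and untreated. Between Ang1 and untreated they did so at -0.45 to 0.33, and between Ang1 and VEGF at -0.26 to 0.24. Within each array type, every same-numbered pair with an untreated RNA correlated more highly than every different-numbered one. For Ang1 this was narrow on array A, at least 0.34 against at most 0.33, and on array B at least 0.14 against at most 0.10. Pairs of Ang1 and VEGF did not show this, so whether a number marks an animal was not settled. By the design text each animal gave an RNA to each group. The main fit nevertheless left the RNAs unpaired, since the labels assign no replicate number to an animal. Pairing by replicate number, the block, was an alternative only, and by itself it changed no adjusted call. The alternatives tried were normalisation, pseudocount, filter, trend, the replicate block, each RNA left out and both RNAs that stood apart left out.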

Additional observations from a re-analysis of the deposited data

How the results depend on the processing

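The number of probe sets past the adjusted threshold was 0 in all 6 combinations of comparison and array type, and it was 0 under every alternative but 1: with the replicate block and without both RNAs that stood apart, an alternative chosen after seeing the data, 1 probe set passed in Ang1 against untreated on array A, and it is not of this family. The replicate block alone gave 0 calls and medians over the 6 genes of 0.45, 0.47 and 0.18 for VEGF and Ang1 (each against untreated) and for VEGF against Ang1, and changed no other adjusted call; RT1-Bb in VEGF against untreated then had an unadjusted limma p of 0.0471, against 0.0691 without it. Unadjusted p under 0.05 was met by 158 (87 to 366) and 66 (17 to 274) probe sets on arrays A and B in VEGF against untreated, 303 (176 to 687) and 967 (514 to 1707) in Ang1 against untreated, and 189 (100 to 576) and 777 (358 to 1579) in VEGF against Ang1. The medians over the family were 0.32 to 0.65, 0.27 to 0.70 and -0.16 to 0.39, with -0.16 to 0.31 in VEGF against Ang1 when 1 RNA was left out, where the lowest value was without VEGF replicate 1.

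Of 480 values over the single probe sets, 467 kept their direction. With 1 RNA left out, VEGF against untreated ranged over -0.14 to 0.21 in RT1-Ba 1392334_at and -0.48 to 0.61 in RT1-Da; Ang1 against untreated over -0.65 to 0.44 in RT1-Da; and VEGF against Ang1 over -0.03 to 0.49 in RT1-Bb, -0.28 to 0.52 in RT1-Da and -0.15 to 0.53 in Cd74. RT1-Da in Ang1 against untreated was -0.29 with deposited values centred on the median. With the block and without both RNAs, VEGF against untreated was -0.02 in RT1-Ba 1381593_x_at and -0.20 in 1392334_at, and VEGF against Ang1 was 0.0 in Ciita 1379381_at. The cause was not tested. Showing all probe sets of a gene in place of the brightest added no value, since all are given.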
